A study of Mus musculus with 142 samples.

Results

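CL20k is an mESC line in which CRISPR removed the left 20 kb of early replication control element (ERCE) C from the musculus homolog of chromosome 16. Its members are the profiles whose column names begin with the line's name. These are 2 clones (49 and 85), each sequenced as 1 early and 1 late S-phase fraction, so that 4 of the 142 labelled samples and 4 of 138 allele profiles belong to it. In both clones the deletion lies on the musculus homolog, and the castaneus (CAST) homolog of the same cells is intact and serves as control. The other 51 clones with values carry other deletions in the same locus.

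The cells were F121-9, a hybrid mESC line of musculus and castaneus, grown in 2i + LIF. All lines share this background and a 2 h BrdU label, and no untreated parental library was used here. E/L Repli-seq gives log2(E/L), the log2 ratio of DNA replicated in early over late S phase, in windows of 50 kb for each homolog. Positive values are early and negative values are late. The authors had scaled, quantile-normalized and loess-smoothed these values over 300 kb before deposition. A pair of further clone sets was used for comparison. Loss of all 3 C OSN sites was represented by COSN123 (clone A10), CR13.4k (clones 2-12 and 2-49) and CR14.6k (clones 16 and 53). Loss of 1 C site was represented by COSN1 (clones 2-28 and 2-33) and CTSS (clone C12), all on the musculus homolog. CTSS clone C4 and CR11.8k clone 50 carry their deletion on CAST and supplied the WT musculus profiles. Each CL20k clone is 1 library, so the spread between the clones includes both culture and library differences.

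Mammalian chromosomes replicate in domains that switch between early and late S phase during development. ERCEs are cis-acting segments that keep a domain early replicating, and those of the Dppa domain hold sites bound by the pluripotency factors OCT4, SOX2 and NANOG (OSN sites). The domain is early replicating in mESCs and carries Dppa2 and Dppa4, which encode DNA-binding proteins of pluripotent cells, and Morc1, a gene needed for spermatogenesis. CL20k asks what happens to RT when a long stretch of ERCE C without any of its OSN sites is lost.

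The 2 guides of the line are shown here because they set the ends of the deleted segment, with the bases of the PAM in capitals. C-LEFT-G1 matched the minus strand at chr16:48581328-48581350 (mm10) and C-RIGHT-G1 the plus strand at chr16:48601328-48601350, each with 1 perfect match on the autosomes.
C-LEFT-G1: gtgtaagggtaggatacggtAGG
C-RIGHT-G1: tgaatgtgtgagacatgcgaAGG
A cut 3 bases from each PAM predicts loss of chr16:48581334-48601344, which is 20011 bp. The 30 bases around each predicted cut are given next on the plus strand, with the lost bases in capitals. They are reference sequence, and the junctions of the clones themselves were not read here.
Left cut, chr16:48581319-48581348: aagccgtatcctaccGTATCCTACCCTTAC
Right cut, chr16:48601330-48601359: AATGTGTGAGACATGcgaaggcgcatctca

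The segment lies inside Morc1 (GENCODE vM21, plus strand, chr16:48431237-48630900) and takes out exons 18 to 20 of the 27 exons of its main annotated transcript. Together 4 annotated Morc1 exons and 485 exonic bases lie in it, and 1 annotated Morc1 transcript starts in it. The remaining bases are intronic. The Morc1 start that is removed in CTSS is placed by the study in the right part of ERCE C, among the OSN sites. The nearest OSN site, C-OSN-3 (843 bp), begins 4977 bp to the right of the right cut. C-OSN-2 begins 6872 bp and C-OSN-1 begins 11828 bp to the right of it, and none overlaps the deleted bases. The right cut is also the left end of CR14.6k, which removes the adjoining 14654 bp with all 3 sites.

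In base composition the deleted segment was close to the genome's median. Its GC content was 41.8%, beside 42.6% for the adjoining segment removed in CR14.6k and a median of 41.4% over 119498 autosomal segments of the same length. It held 143 CpGs (median of those segments 152), and 33.6% of its bases were repeat-masked (median 29.9%). The octamer ATGCAAAT, the letters that OCT4 and related POU factors bind, was searched on both strands and occurred 2 times, and 79.5% of the autosomal segments held at least 1. Both matches are shown with the octamer in capitals, written on the strand that carries it.
chr16:48588477-48588484, plus strand: atttctaggtATGCAAATatgtgtttct
chr16:48594881-48594888, minus strand: atgtgcacttATGCAAATtaatttgttc
The Sox-Oct core TTGTNATGC was not found in the deleted segment on either strand, and 41.9% of the autosomal segments held it. Neither spelling occurred in the segment removed in CR14.6k, including the 3 OSN sites. This says only that these exact letters are not there.

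The 4 CL20k profiles covered 83.8% to 86.4% of the 49264 autosomal windows, and the other 128, with repeat runs averaged, covered 73.8% to 93.8%. The read depth behind a window is unknown, since only ratios were deposited. The windows holding the starts of 10 of 10 pluripotency genes (Pou5f1, Sox2, Nanog, Klf4, Esrrb, Zfp42, Tfcp2l1, Prdm14, Dppa2 and Dppa4) were early in all 4 profiles, with log2(E/L) from 0.49 to 1.62. Of 10 genes that mark other cell types, 7 were early in all 4 profiles and 1 (Foxa2, an endoderm regulator) was late in all 4. These are timing values and not expression. Most genes of both lists were early, so the values tell the cell type apart poorly. The share of all windows that were early in all 4 profiles is not given here.

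The Dppa domain stayed early on the deleted homolog. On the musculus homolog, log2(E/L) reached a peak of 0.74 in clone 49 and 0.91 in clone 85, and on CAST it reached 0.95 and 1.04. The peaks of the 40 WT CAST alleles of other clones ranged from 0.88 to 1.598 with a median of 1.23, and those of the WT musculus alleles were 1.15 and 1.16. The peak of the deleted homolog was thus below both WT musculus peaks in both clones, and in clone 49 below all 40 WT CAST peaks. All 4 CL20k peaks lay between 48.375 and 48.425 Mb, left of the deleted segment. The stretch with positive values on the musculus homolog was 826 kb wide in clone 49 and 890 kb in clone 85, and on CAST it was 994 and 968 kb. The WT CAST alleles of 40 other clones had a width between 820 and 1126 kb, with a median of 980 kb, so that all 4 widths of CL20k lay within that range. The WT musculus alleles were 868 kb wide in CR11.8k clone 50 and 901 kb in CTSS clone C4. The left edge of the early stretch was at 48.096 and 48.081 Mb on the musculus homolog of CL20k, close to 48.087 and 48.082 Mb on these WT musculus alleles.

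**Figure D1:**
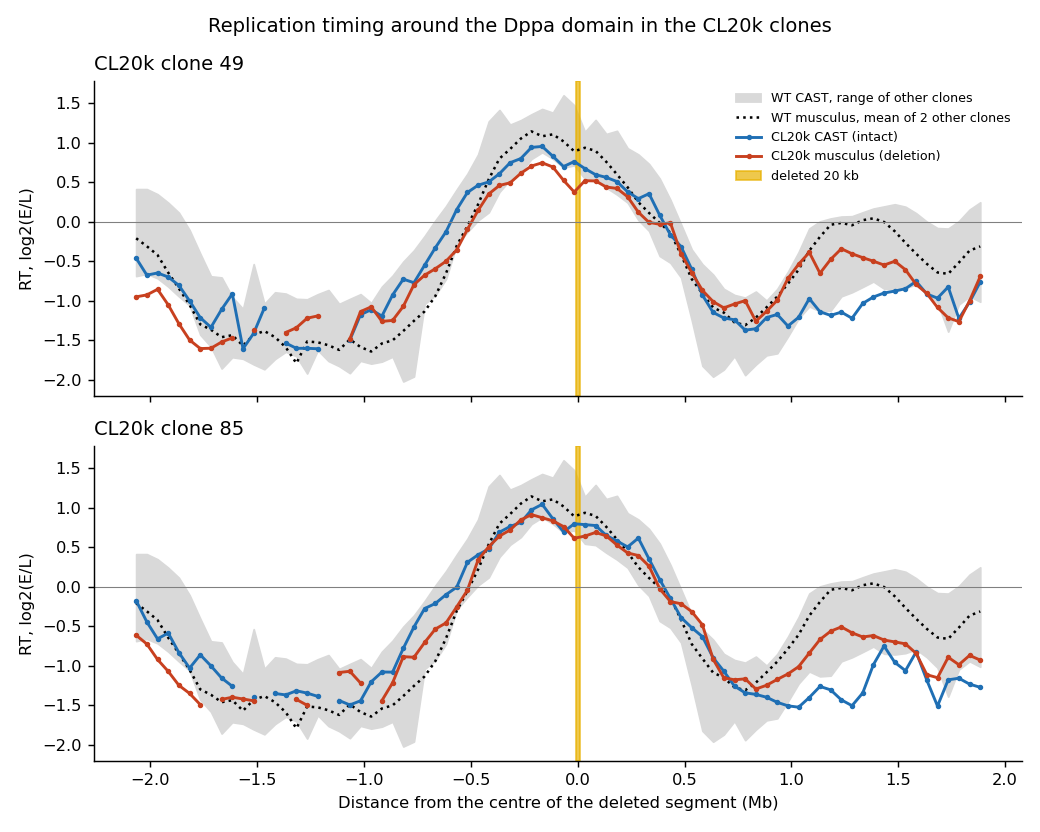
RT, as log2(E/L) per 50 kb window, against the distance in Mb from the centre of the deleted segment (yellow bar), with 1 panel per CL20k clone. The red line is the deleted musculus homolog and the blue line the intact CAST homolog, the grey band spans the WT CAST alleles of 40 other clones, and the dotted line is the mean of 2 WT musculus alleles. Both homologs rise above 0 over about the same stretch, with the peak between 0.74 and 1.04, and the CAST line runs below the grey band to the right of the domain.

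The area between the musculus and CAST curves over chr16:47500001-49500000 (40 windows, in log2(E/L) times windows, negative when the musculus homolog is later) was −4.72 in clone 49 and −2.81 in clone 85. The area of their mean curves was −3.66. Both clones were thus on the later side, by a mean of −0.12 and −0.06 log2(E/L) per window. Most of it came from the left shoulder at chr16:47500001-48200000, with −2.81 in clone 49 and −2.38 in clone 85. The early core at chr16:48200001-48600000 gave −1.46 in clone 49 and −0.32 in clone 85. In the rest of the domain, at chr16:48650001-49500000, the area was 0.09 and 0.18.

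Areas of this size were common elsewhere in the same clones. Of 37797 intervals of 2 Mb on the autosomes, 44.8% reached or exceeded the size of this area, and 22.9% were at least as low. The median size was 3.19 and the 95th percentile 13.3. When only intervals without a recurrent allele difference in other clones were kept, the share was 40.6%. The share is a description of the clones' intervals, which overlap each other.

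**Figure D2:**
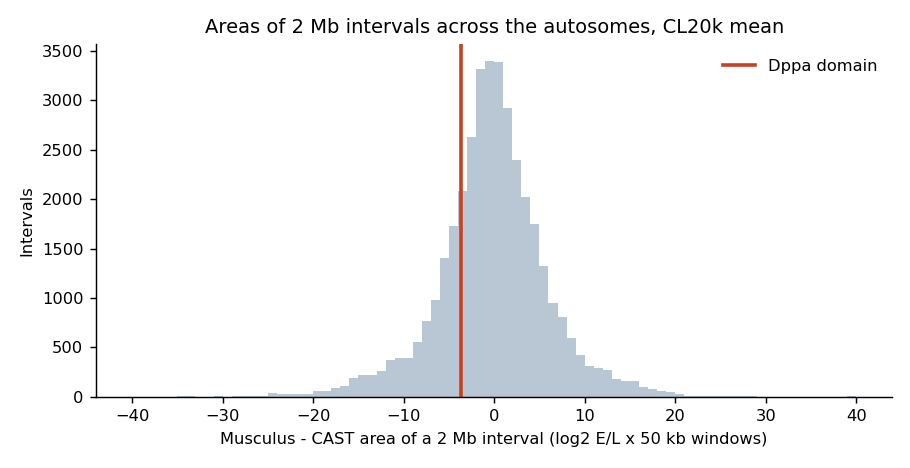
Number of 2 Mb intervals (vertical axis) by their musculus minus CAST area in the mean CL20k curves (horizontal axis, log2(E/L) times windows). The red line marks the Dppa domain at −3.66, inside the bulk of the intervals, whose areas run from −34.9 to 39.9.

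The WT musculus homolog was also later than WT CAST in this domain. Against the mean WT CAST curve, the area was −4.96 for the WT musculus allele of CR11.8k clone 50 and −4.69 for that of CTSS clone C4. Against the mean of these WT musculus curves, the deleted musculus allele of CL20k gave an area of 0.65, with −1.29 in clone 49 and 2.26 in clone 85, which differ in sign. Over chr16:48000001-49000000 alone, this area was −3.74, with −5.40 in clone 49 and −2.09 in clone 85. There the intact CAST homolog also lay below the mean WT CAST curve, by areas of −2.86 and −1.88. Over the whole domain, mean log2(E/L) on the musculus homolog was −0.29 in clone 49 and −0.16 in clone 85, and −0.26 and −0.25 on the WT musculus alleles, which lie between the 2 clones. Clone 85 has values in 39 of the 40 windows, and over the windows measured in each clone the difference from the WT musculus mean was −0.03 in clone 49 and 0.06 in clone 85. The difference of the means was 0.03 (exact two-sided permutation p = 1, adjusted p = 1 over 5 tests), in a design of 2 against 2 clones that cannot go below 0.333. Within the CL20k clones the homolog and the deletion cannot be told apart.

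The same total was made up differently in CL20k and in the WT alleles. On the left shoulder, the deleted musculus allele had a mean log2(E/L) of −0.70 in clone 49 and −0.61 in clone 85, and both WT musculus alleles were later, at −0.91. Clone 85 lacks a value in 1 of these 14 windows, and over the windows that have one the deleted allele was earlier than the WT musculus mean by 0.21 in clone 49 and 0.25 in clone 85. In the core, the deleted musculus allele was at 0.57 in clone 49 and 0.77 in clone 85, and both WT musculus alleles were earlier, at 1.02 and 0.98. The difference in the core was −0.33 (exact permutation p = 0.333, the smallest that 2 against 2 clones allow). In both stretches the CL20k and WT values did not overlap, which 2 against 2 clones cannot carry below an exact permutation p of 0.333. The left shoulder was not tested, and how often such values separate across the genome is not given here.

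The intact CAST homolog of CL20k was also low in the core. It was at 0.79 in clone 49 and 0.83 in clone 85, whereas the 40 other clones ranged from 0.70 to 1.30 with a median of 1.04, and 37 of them lay above both CL20k clones. The difference of the means was −0.20 (exact two-sided permutation p = 0.0267, 40 clones against 2). The core was an alternative to the whole-domain test. Put in its place among the 5 tests, it had an adjusted permutation p of 0.119. Over the whole domain the CAST means were −0.17 and −0.13, within the range of −0.44 to 0.15 of the other clones (difference −0.05, exact permutation p = 0.554, adjusted p = 0.923). In the core, the musculus homolog lay below CAST within each CL20k clone by 0.22 and 0.05, and the CAST control itself lay 0.20 below that of the other clones.

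The window at chr16:48550001-48600000 holds most of the deletion, which removed 37.3% of its bases on the musculus homolog. There, the musculus homolog read 0.37 in clone 49 and 0.61 in clone 85, and CAST 0.76 and 0.80. The musculus homolog was thus lower than CAST in both clones, with differences of −0.39 and −0.18 and a mean of −0.28 ± 0.11 (SE, limma adjusted p = 0.0874). With the spread pooled over all clones, which deletions of other clones widen here, the SE was 0.30 (limma adjusted p = 0.613). The next window, with 2.69% of its bases removed, differed by −0.15 in clone 49 and −0.14 in clone 85. The WT musculus means also dipped here, at 1.02, 0.89 and 0.93 in this window's left neighbour, this window and its right neighbour. The WT musculus alleles differed in depth, with 1.09, 0.88 and 0.96 in CR11.8k and 0.94, 0.90 and 0.91 in CTSS. On the deleted homolog these windows read 0.52, 0.37 and 0.52 in clone 49 and 0.76, 0.61 and 0.64 in clone 85. The intact CAST homolog did not dip, with 0.70, 0.76 and 0.67 in clone 49 and 0.69, 0.80 and 0.79 in clone 85. The mean WT CAST curve of the other clones fell steadily, at 1.01, 0.93 and 0.87. The shape across these windows was not tested. Without the windows that overlap the deletion, the domain area was −3.37, an alternative chosen after the data were seen.

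Across the genome, limma called 3131 of 37266 windows (8.4%) as later on the musculus homolog in the CL20k clones and 2929 (7.86%) as earlier, at an adjusted p of 0.05. Of the 71 windows of the surrounding 4 Mb (chr16:46500001-50500000) with values in both clones, 9 were called later and 9 earlier. Inside the domain, 3 of 39 windows were called, all later and all at the left edge, at chr16:47950001-48100000. In the last of them, from 48050001, the musculus homolog read −0.10 and CAST 0.37 in clone 49, and −0.04 and 0.31 in clone 85 (difference −0.41 ± 0.10, SE, limma adjusted p = 0.0155). The WT musculus alleles differed from WT CAST by −0.33 in the same window. With 2 clones the fit rests on 1 residual degree of freedom and a prior of 12.3. On simulated data it made more false calls than its threshold allows, which applies to every call of this fit given here. With the spread pooled over all clones, chosen after the data were seen, none of the domain windows passed, and the calls in the surrounding 4 Mb were 5 later (genome 7.87%) and 10 earlier (genome 7.54%). Other clones carry deletions in the domain, which widens that pooled spread there.

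At the gene starts, no window within the domain passed limma's test between the homologs. Dppa4 read 0.49 on the musculus homolog and 0.75 on CAST in clone 49, and 0.72 and 0.76 in clone 85. Dppa2 read 0.61 and 0.80 in clone 49, and 0.84 and 0.81 in clone 85, so the clones disagreed in sign. The mean difference was −0.15 ± 0.11 at Dppa4 and −0.08 ± 0.11 at Dppa2 (SE, limma adjusted p = 0.39 and 0.687). At the Morc1 start, left of the deletion in a window shared with Gm5485, the musculus homolog read 0.74 and 0.87 and CAST 0.95 and 1.04. There the musculus homolog was lower in both clones, by 0.21 and 0.17 (mean −0.19 ± 0.10, SE, limma adjusted p = 0.244).

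Right of ERCE C the mean differences in the domain ran from −0.20 at Retnlg to 0.04 at Myh15. Trat1, which encodes a T-cell receptor adaptor, read 0.42 on the musculus homolog and 0.51 on CAST in clone 49 and 0.53 and 0.58 in clone 85. Retnlb and Retnla, which encode secreted resistin-like proteins and share a window, differed by −0.06 and −0.08, and Retnlg, of the same family, by −0.17 and −0.22. Dzip3, a ubiquitin ligase, and Cip2a, an inhibitor of the phosphatase PP2A, share the window where the curves cross 0, at −0.03 on the musculus homolog in both clones and 0.08 and 0.09 on CAST. Myh15, a myosin heavy chain gene, was late on both homologs, with −0.41 and −0.32 in clone 49 and −0.22 and −0.39 in clone 85. None of these windows was called (limma adjusted p from 0.225 to 0.84). Of the 11 genes whose start lies in the domain, 10 had a negative mean difference, and several share a window. The WT musculus homolog of other clones was also later than WT CAST at most of these genes, by other amounts. In the same windows, mean WT musculus minus mean WT CAST was negative at every gene but Dppa2, from −0.14 at Retnlg to 0.04 at Dppa2. It was −0.01 at Dppa4 and −0.07 at Morc1, beside −0.15 and −0.19 in CL20k. At Trat1 it was −0.10 and at Retnlb −0.09, beside −0.07 at each in CL20k. The signs differed at Dppa2 and Myh15. Over all 37266 windows tested in CL20k, the median of the mean differences was −0.0005.

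**Figure D3:**
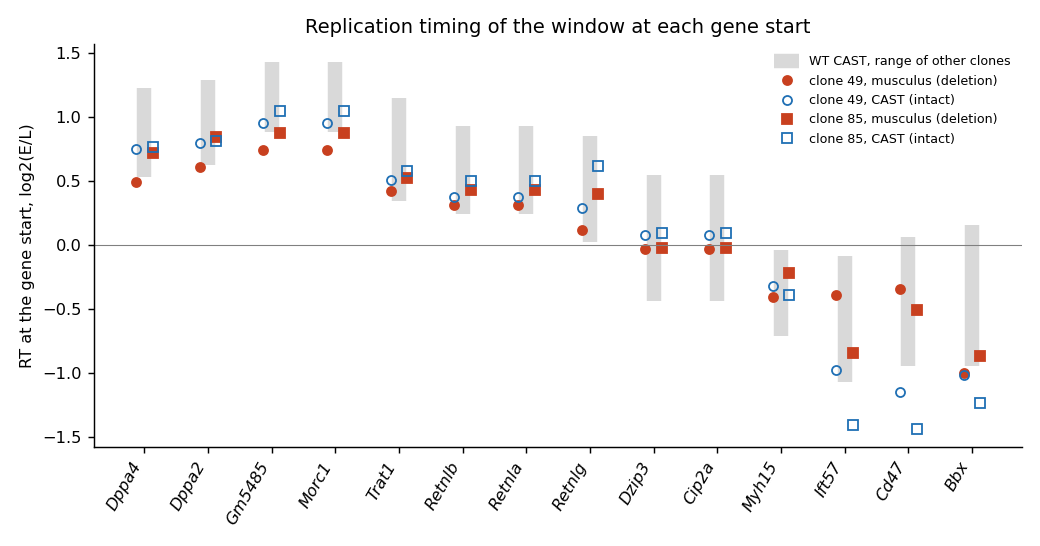
RT, as log2(E/L), of the window at the start of 14 protein-coding genes in chromosome order (circles for clone 49, squares for clone 85, red for the musculus homolog and open blue for CAST), over the range of the WT CAST alleles of 40 other clones (grey bars). The homologs differ by at most 0.25 at every gene from Dppa4 to Myh15 and separate by 0.56 to 0.92 at Ift57 and Cd47, where CAST is the later one.

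The largest allele differences near the deletion were outside the domain. In the right neighbouring domain at chr16:49650001-50050000, the musculus homolog averaged −0.47 in clone 49 and −0.64 in clone 85, and CAST −1.07 and −1.25, so the musculus homolog was the earlier homolog by 0.60 and 0.61. At Ift57, a gene for intraflagellar transport, the differences were 0.58 and 0.56 (mean 0.57 ± 0.10, SE, limma adjusted p = 0.00183). This call was lost without pairing the homologs by clone (limma adjusted p = 0.0964). With the spread pooled over all clones it was kept with both CL20k clones (limma adjusted p = 0.00319) and lost with either left out. At Cd47, which encodes a receptor that restrains phagocytosis, they were 0.80 and 0.92 (mean 0.86 ± 0.10, SE, limma adjusted p = 0.000109). Bbx, further right, differed by 0.02 and 0.36 (limma adjusted p = 0.29).

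That the musculus homolog is earlier there was common to the other clones. Their mean differences ranged from 0.09 to 0.88 with a median of 0.47 and were above 0 in 50 of 50 clones, and 7 exceeded both CL20k clones. The CL20k mean exceeded theirs by 0.15 (exact two-sided permutation p = 0.16, adjusted p = 0.4 over 5 tests, 50 clones against 2). In the 3 windows at Cd47 alone, the CL20k differences were 0.73 and 0.85, and 1 of the 50 other clones exceeded both (range 0.12 to 0.90, median 0.50). On the left, at chr16:46500001-47000000, the musculus homolog was later by 0.39 and 0.36, and the other clones had a median of −0.36 and were below 0 in 49 of 50.

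The levels of both homologs outside the domain were low in CL20k. In the right neighbouring domain, mean log2(E/L) on CAST was below that of all 40 other clones with a WT CAST allele, which ranged from −0.84 to 0.05 with a median of −0.41. The deleted musculus homolog, at −0.47 and −0.64, was also below both WT musculus alleles, at −0.21 and 0.06. On the left flank, the deleted musculus homolog averaged −1.28 and −1.14 and was again below both WT musculus alleles, at −0.96 and −0.85. CAST averaged −0.89 and −0.80 there, and 2 of the 40 other clones lay below both (range −0.94 to −0.17, median −0.61). CAST of both CL20k clones lay below every other WT CAST allele in 6 of 8 windows of the right neighbouring domain, in 11 of 72 windows of the surrounding 4 Mb and in 0 of 39 inside the Dppa domain. The background was 1.69% of 38383 autosomal windows below and 0.375% above. No such background is given here for the comparison with the WT musculus alleles. The CAST profiles of the CL20k clones departed from the mean of the other clones across the autosomes with an SD of 0.253 and 0.252, which ranked 5 and 6 of 42 clones (range 0.133 to 0.323). The part of this spread in the low values was not tested.

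**Figure D4:**
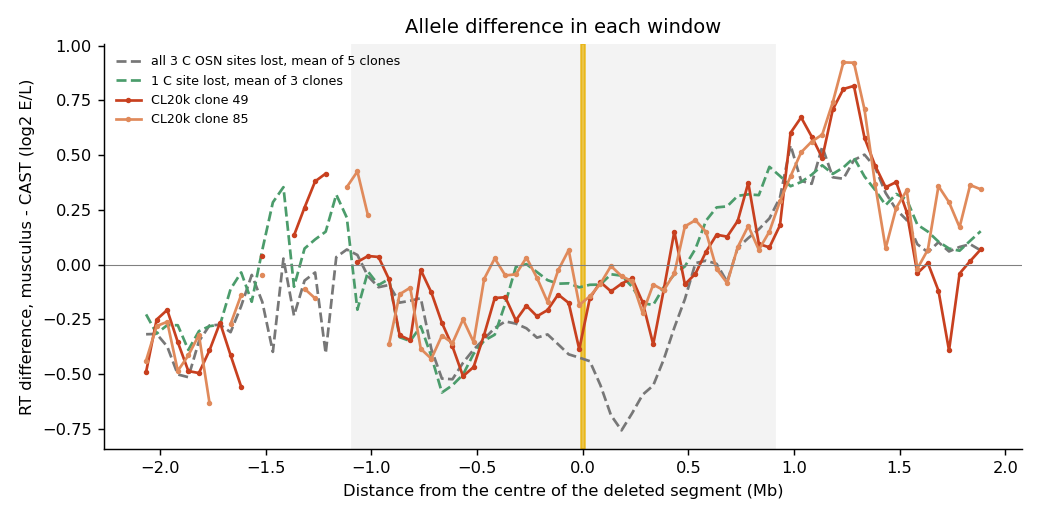
Difference in RT between the homologs (musculus minus CAST, log2(E/L)) per window against the distance in Mb from the centre of the deleted segment, with the Dppa domain shaded. Solid lines are the CL20k clones, and dashed lines are the means of 5 clones without the 3 C OSN sites (grey) and of 3 clones without 1 C site (green). All lines dip on the left shoulder and rise on the right flank, and only the grey line stays well below 0 from the deleted segment rightwards.

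In all 5 clones that lost the adjoining OSN sites the area was lower than in both CL20k clones, a difference that did not pass after adjustment. The areas were −14.1 in COSN123 clone A10, −11.0 and −10.5 in CR13.4k clones 2-12 and 2-49, and −6.60 and −12.4 in CR14.6k clones 16 and 53. The CL20k areas were −4.72 and −2.81. The CL20k mean (−3.76 ± 1.35, SD, n = 2) exceeded theirs (−10.9 ± 2.78, SD, n = 5) by 7.14 (exact two-sided permutation p = 0.0476, the smallest that 2 against 5 allow, adjusted p = 0.238 over 5 tests). With the mean WT CAST curve of all clones as the control of both, the difference was 4.50 (exact permutation p = 0.286), and 4 of 5 clones lay below both CL20k clones.

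Loss of 1 C site gave areas on either side of those of CL20k. COSN1 clones 2-28 and 2-33 had −2.56 and 0.79, and CTSS clone C12 had −9.58. Their mean (−3.79 ± 5.29, SD, n = 3) differed from that of CL20k by 0.02 (exact two-sided permutation p = 1, adjusted p = 1, smallest possible 0.1), with an SD among the 3 clones far above that difference. COSN1.2.8k clone 4, whose line name also holds COSN1, was not in this set and had an area of −5.57. Among the 40 other clones with a deletion on the musculus homolog and a WT CAST allele, only COSN1 clones 2-28 and 2-33 had an area above both CL20k clones.

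**Figure D5:**
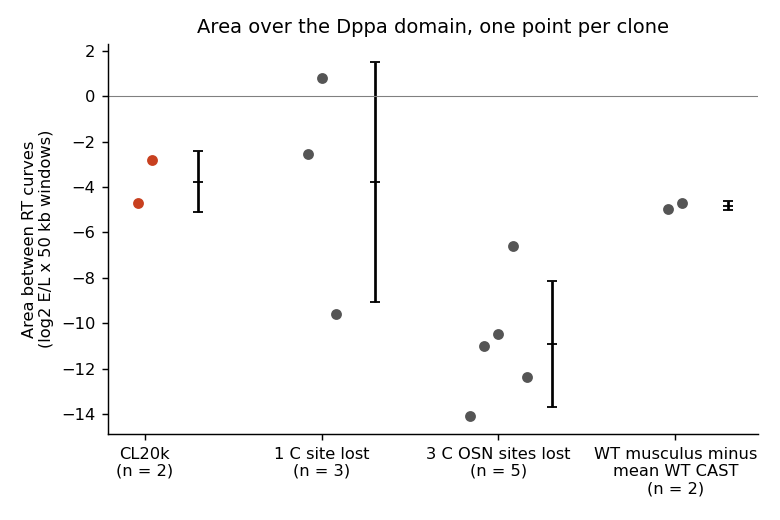
Area between the RT curves over the Dppa domain (vertical axis, log2(E/L) times windows), 1 point per clone, with mean and SD to the right of each group. The first 3 groups are musculus minus CAST of the same clone, and the last is the WT musculus allele minus the mean WT CAST curve. The CL20k points at −4.72 and −2.81 lie above all 5 clones without the OSN sites and beside the WT musculus points at −4.96 and −4.69.

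The allele differences of both CL20k clones were correlated across the genome. Over 37266 windows their Pearson's r was 0.65, as a description across windows that share smoothing, and 68.8% of windows had the same sign in both. The SD was 0.309 in clone 49 and 0.293 in clone 85, and the median size of the mean difference was 0.14. The largest 2 Mb area was 39.9 at chr18:13400001-15400000, near Ss18 (a subunit of BAF remodelling complexes), with 38.9 and 40.9 in the 2 clones and 20.9 to 39.2 in the others. The next were −34.9 near Akap13, 28.8 near Sphkap, −28.7 near Trpc7 and 28.1 near Lrrc6. The medians of the other clones in these 4 intervals were −23.4, 29.3, −19.6 and 25.8, so that they shared the sign in each.

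Against the other clones, the musculus minus CAST difference of CL20k departed in 38 of 37186 windows outside the surrounding 4 Mb (0.102%, limma adjusted p at or under 0.05), 19 in each direction and on 13 chromosomes. Without clone 49 the count was 7, without clone 85 it was 28, and with each library as a unit it was 25. On the rest of chromosome 16, 3 of 1288 tested windows were among them.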

How the data were processed

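CL20k clones 49 and 85, and their members and gene lists, were chosen with earlier results of these data known. Per the labels and the study's methods, S-phase cells took up BrdU over 2 h and were split by DNA content into an early and a late fraction, whose BrdU-labelled DNA was sequenced. The authors trimmed reads (Trim Galore), aligned them to N-masked mm10, assigned them to homologs and counted them in 50 kb windows. The deposited values are log2 ratios of early over late reads, scaled, quantile-normalized and loess-smoothed over 300 kb, so neighbouring windows are not independent and a 20 kb effect is spread over its neighbours. Tool versions are not given in the sources used here. Depth is unknown, and precision comes from the spread between clones.

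Of 66 libraries (53 clones, 26 lines), repeat runs of 3 clones were averaged, and so were all libraries of the same clone. Samples of 5 libraries (10 samples) had no column and were not analysed here. Areas used the trapezoid rule, skipping windows without a value. Intervals needed values in 80% of windows and did not overlap chr16:46500001-50500000. Windows were tested with limma 3.58.1 in R 4.3.3 (eBayes, Benjamini-Hochberg, threshold 0.05, at least 10 other clones), in a fit of the 2 allele differences and a fit against 51 other clones. The fits were tested on simulated data, where the 2-clone fit made more false calls than its threshold, and therefore a fit with the spread of all clones was added. Clone means and areas were compared by exact permutation tests, 5 in their main setting. The same comparisons with other intervals, units or controls were run as alternatives. Guides came from the study's guide table and were matched to GRCm38, and genes came from GENCODE vM21. Named genes are the protein-coding genes starting at chr16:46500001-50500000, and those nearest to the 5 largest intervals and the 5 windows departing most (by p). Alternatives covered intervals, controls, missing windows, eBayes settings, units and each clone left out. Python 3.11.15, numpy 2.4.6, pandas 2.3.3 and matplotlib 3.10.9 were used.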

Additional observations from a re-analysis of the deposited data

Results flagged for a closer look

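In 38 windows outside the engineered region, the musculus minus CAST difference of the CL20k clones departed from that of the other clones, by the test of that difference (limma). The 5 with the smallest p include a pair of adjoining windows at Skint10 and Skint2 on chromosome 4, with differences of −4.52 and −4.30 against the other clones. These rest on clone 49, whose musculus profile read −11.0 and −10.8 there, while clone 85 read −0.85 and −0.79. Near Gm10800 on chromosome 2 the difference was 0.87, with 0.65 and 0.66 in the clones and −0.22 on average in 42 others. At Sv2b on chromosome 7, a synaptic vesicle gene, it was −0.62, with −0.87 and −1.32 in the clones and −0.47 on average in 51 others. In a window of chromosome 18 whose nearest protein-coding gene is Cdh2 it was −0.56, with −0.78 and −0.92 in the clones and −0.29 on average in 50 others.

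On chromosome 16, the adjoining windows at chr16:46050001-46150000, at Cd96, departed by −0.56 and −0.57 (limma adjusted p = 0.0299 and 0.0392). Clone 49 read −0.27 and −0.71 there and clone 85 −0.52 and −0.22, and the other clones averaged 0.16 and 0.10. The window at chr16:98050001-98100000, at the end of the chromosome near A630089N07Rik, departed by −2.25 (limma adjusted p = 0.0361). These 3 windows were chosen for their chromosome after their values were seen, and no cause was tested.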

How the results depend on the processing

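The domain area of CL20k was between −4.72 and −2.81 with either clone left out, the absolute area was 6.15, and the area reversed to 0.65 with the WT musculus alleles of other clones as control. The share of intervals with an area at least as large was between 39.3% and 57.5% with either clone left out. Against 6060 windows that differed between the homologs, the count was 2288 when the 4 curves were not paired by clone, and between 2120 and 2528 without either clone (spread pooled over all clones). In the surrounding 4 Mb, against 18 calls, the count was 5 without pairing and 4 to 6 without either clone, and shared windows were not counted. Windows departing from other clones numbered 25 with libraries as units, and 7 to 28 without either clone. For the deleted homolog against WT musculus the difference reversed to −0.33 in the core. Against loss of 1 C site it reversed to −0.17 over chr16:48000001-49000000 and ran from −0.93 to 0.98 without either clone. The other 30 values of these comparisons kept their direction and side of the threshold, or stayed within a set limit of the main value. That limit was wide. It let pass a count of 8722 windows that differed between the homologs, with an intensity trend in eBayes. For the share of intervals it was the SD between the clones, 12.9. Among 14 gene windows, Dppa2 (0.033 without clone 49, −0.19 without clone 85) and Myh15 (0.18 and −0.090) reversed. Ift57 lost its call without pairing and, in the fit with the spread pooled over all clones, with either clone left out. Windows with a value in every library gave no value within the surrounding 4 Mb. The causes were not tested. The homologs are paired within each clone in the limma fit of CL20k. No paired analysis was possible because between lines the CL20k labels carry clone names and no replicate numbers to match on. Where other labels carry them, as in COSN123 and CTSS, they number libraries of the same clone. With 2 clones and no read depth, only large differences can be told from the spread.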
